A study of Astyanax mexicanus with 12 samples.

Results

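Of 683 mature miRNAs counted in *Astyanax mexicanus* embryos at 24 h post fertilization (hpf), 145 (21.2%) were moderately abundant without a large morph step. These 145 were chosen from the counts themselves. A large step means a gap of 0.7 or more on the log2 scale, so smaller steps of a single morph are among them. The level of a miRNA in a morph was taken as log2(mean CPM + 0.5), where CPM is the count divided by the total count of the library and multiplied by 1000000, and the mean is over the 3 libraries of the morph. The 4 levels of a miRNA were put in order, and a miRNA was taken in where its mean count per library was at least 10 and under 1000 and where the largest gap between neighbouring levels was under 0.7 on the log2 scale. Of the 371 miRNAs in this count range, 145 (39.1%) met the limit on the gap and the other 226 did not. Outside the range, 132 miRNAs had a mean count of 1000 or more and 180 had a mean count under 10.

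The study compared Molino, Pachón, and Tinaja cavefish, each named after its cave, with the river-dwelling surface fish. All embryos were wild type and 24 hpf, whole embryos were used, and each morph had 3 small RNA libraries, 12 in all. The sources do not say how the collected embryos of a morph were divided among its libraries, so the SDs given here measure the spread between libraries, which may be technical. Since all 12 libraries entered the choice of the miRNAs, the differences between morphs are given as a description and without a test.

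miRNAs are short noncoding RNAs that guide Argonaute proteins to messenger RNAs, mostly through base pairing of the miRNA seed with sites in the 3′ untranslated region, and thereby lower the stability or translation of the target. In fish embryos, miRNAs are known for the clearance of maternal messenger RNAs and for the differentiation of tissues such as muscle, heart, and nervous system. The miRNAs bear the names that the authors gave them, astmex-miR- followed by a number, and such a number is no sign of relation to a miRNA of the same number in another species. Their sequences, genomic positions, and targets were not analysed here, so reads shared between similar miRNAs could not be traced, and no role is given for a single miRNA.

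The counts of a library on all 683 miRNAs added up to between 5539157 and 15279059, a 2.76-fold range of depth. At these depths 3 counts, the floor used here, equal 0.196 to 0.542 CPM, with counting error alone in view. Tinaja replicate 3 stood apart. Compared with the other libraries of its morph, its chi-square statistic per degree of freedom was 363 and 543, against 10.6 to 183 for the other pairs of replicate libraries. This statistic was taken over all miRNAs with counts and can be set by the most abundant, so it does not describe the 145 in particular. The TMM factor of Tinaja replicate 3 was 1.136, the highest of the 12. The 145 miRNAs lay a median of 0.15 higher in this library than in the mean of the Tinaja libraries on the log2 scale. This was not particular to them, as the median was 0.12 over all 683 miRNAs. Without it, the same limits took in 136 miRNAs, 127 of them among the 145. The morph with the highest level was then the same in 137 of the 145, and the morph with the lowest level was the same in 135.

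The 145 miRNAs made up a small and even part of the counts. Together they had 2443 ± 54.6 CPM in Molino, 2261 ± 87.6 CPM in Pachón, 2428 ± 201.1 CPM in Tinaja, and 2461 ± 102.6 CPM in surface fish (SD, n = 3 each), which is 0.22% to 0.264% of the counts of a library. The summed levels overlapped between morphs apart from those of Pachón, whose 3 libraries (2200 to 2361 CPM) lay below those of Molino (2394 to 2502 CPM) and of surface fish (2380 to 2576 CPM). Tinaja replicate 3, with 2640 CPM, was the highest of the 12 libraries, and the other Tinaja libraries had 2406 and 2239 CPM. This rank depended on the scaling. With TMM-adjusted totals (a factor of 1.136), Tinaja replicate 3 lay below the other Tinaja libraries and those of Molino and surface fish. With RLE-adjusted totals (a factor of 1.054), it stayed the highest. The Pachón libraries lay below those of Tinaja as well under both adjustments. The mean count per library of a single miRNA was between 10 and 987, with a median of 43.9. Each of the 145 had a count in every library, whereas 166 of the other 226 miRNAs in the count range and 511 of all 683 did. Absence from a morph widens the gap between levels, so the limit on the gap bears on this contrast and nothing is read from it. In 47 of the 145, at least 1 library had fewer than 10 counts, and in 5 at least 1 library had 3 counts or fewer.

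The difference between the highest and the lowest morph level was 0.13 to 1.71 on the log2 scale, with a median of 0.82 and quartiles of 0.61 and 0.99. As a ratio of mean CPM + 0.5, this was a 1.10- to 3.28-fold difference with a median of 1.76-fold. The fold differences given beside the levels are such ratios. They are smaller than ratios of plain CPM, most of all at low CPM. For example, astmex-miR-536 had means of 2.41 CPM in surface fish and 0.525 CPM in Pachón, and its ratio on this scale was 2.84. Which miRNAs differ most thus depends on the added 0.5. The other 226 miRNAs of the count range had a median difference of 2.37 (5.15-fold), and all 683 had a median of 1.21. The limit on the gap sets this contrast, as 4 levels with 3 gaps under 0.7 cannot lie far apart. By the size of the difference, 22 miRNAs are called stable here (under 0.5), 36 graded (at least 1, which is 2-fold), and 87 lay between these limits. Without Tinaja replicate 3, 24 of the 145 were stable and 39 were graded.

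**Figure D1:**
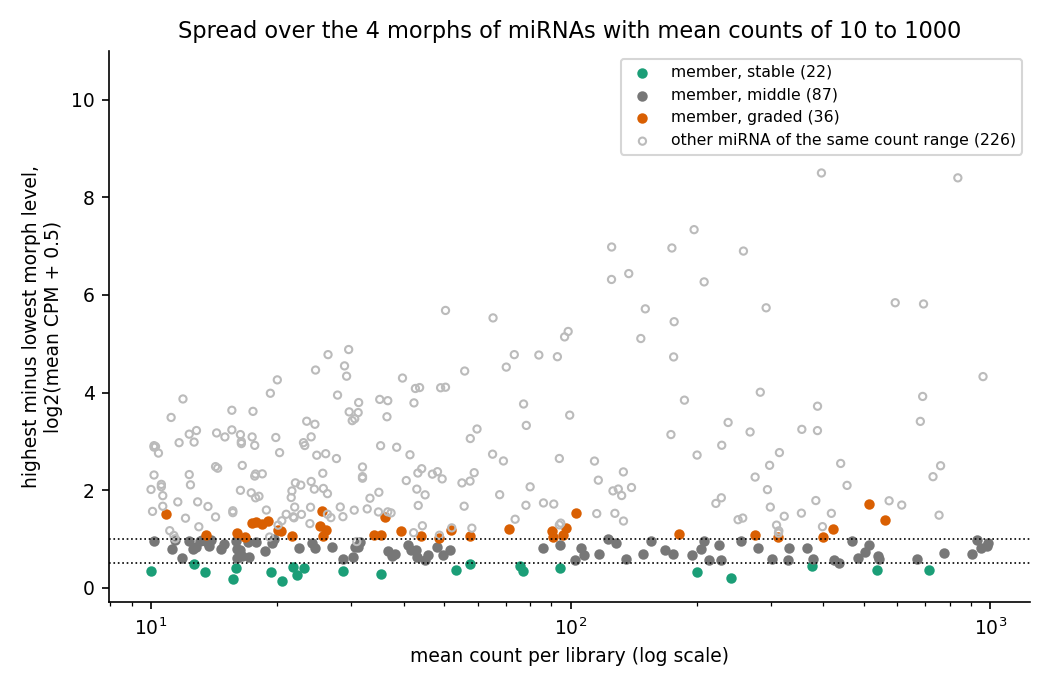
Difference between the highest and the lowest morph level, log2(mean CPM + 0.5), of each miRNA with a mean count of 10 to 1000 against its mean count per library on a log scale, with filled points for the 145 miRNAs (green stable, grey between, orange graded), open circles for the other 226, and dotted lines at 0.5 and 1. Stable and graded points lie at both low and high counts, and the highest filled point is at 1.71.

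The limits cut through a continuous range. Just inside the limit on the gap were astmex-miR-118 (0.69), astmex-miR-377 (0.69), and astmex-miR-230 (0.69), and just outside it were astmex-miR-410 (0.70), astmex-miR-222 (0.70), and astmex-miR-292 (0.72). Of those outside, astmex-miR-222 had 62.3, 56.4, and 53.3 CPM in Molino, 38.2, 32.4, and 34.5 CPM in Pachón, 24.9, 20.9, and 29.6 CPM in Tinaja, and 73.6, 72.7, and 73.5 CPM in surface fish, so that each of its morphs was apart from the next. At the limits on the count, astmex-miR-557 with a mean of 10 counts and astmex-miR-94 with a mean of 987 counts were taken in, and astmex-miR-472 (9.92 counts) and astmex-miR-213 (1001 counts) were not.

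Among the stable miRNAs, the differences between morphs were close to the differences between replicate libraries. The median difference between highest and lowest morph was 0.35, and the median SD between replicate libraries of a morph, taken on log2(CPM + 0.5) and pooled over the 4 morphs, was 0.25. In 6 of the 22, the replicate SD was larger than the difference between the highest and the lowest morph. In 17 of the 22, no neighbouring pair of morphs was free of overlap between its libraries, and in 12 the libraries of the highest and the lowest morph did not overlap, beside 24.3% and 90.0% of all 683. Of the 22, 8 had their highest level in Molino, 4 in Pachón, and 1 in Tinaja, against 9 in surface fish.

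The smallest difference was that of astmex-miR-455. It had 2.08, 2.75, and 2.05 CPM in Molino, 2.52, 1.77, and 2.39 CPM in Pachón, 2.27, 1.64, and 2.25 CPM in Tinaja, and 1.64, 1.52, and 3.07 CPM in surface fish. The libraries of all morphs overlapped, and surface fish held both the lowest and the highest value. The levels differed by 0.13, against a replicate SD of 0.29.

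astmex-miR-495, with a mean of 15.7 counts, had 1.17, 1.25, and 2.05 CPM in Molino, 1.17, 1.96, and 1.69 CPM in Pachón, 1.94, 1.64, and 1.72 CPM in Tinaja, and 1.17, 1.37, and 1.99 CPM in surface fish. Here too, the libraries of all morphs overlapped, and the levels differed by 0.19. astmex-miR-435 had 2.86, 1.497, and 1.69 CPM in Molino, 2.93, 2.16, and 2.49 CPM in Pachón, 1.78, 2.39, and 2.38 CPM in Tinaja, and 2.69, 2.13, and 2.53 CPM in surface fish. Its levels differed by 0.27, close to its replicate SD of 0.25, and again all morphs overlapped. astmex-miR-327 had 4.16, 2.37, and 3.63 CPM in Molino, 3.69, 2.75, and 5.58 CPM in Pachón, 3.96, 2.59, and 3.83 CPM in Tinaja, and 3.40, 3.20, and 6.14 CPM in surface fish. The third surface fish library and the third Pachón library were its highest values, its levels differed by 0.29, and its replicate SD was 0.40. At mean counts of 15.7 to 35.2, the replicate SD was 1.08 times the SD that counting error alone gives on the same scale in astmex-miR-455, 0.918 times in astmex-miR-495, 0.952 times in astmex-miR-435, and 1.81 times in astmex-miR-327.

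astmex-miR-133 and astmex-miR-134 had more counts, with means of 241 and 201, and so less counting error. astmex-miR-133 had 22.3, 25.1, and 21.1 CPM in Molino, 26.2, 25.6, and 25.4 CPM in Pachón, 24.2, 20.8, and 33.2 CPM in Tinaja, and 23.8, 28.7, and 26.0 CPM in surface fish. The 3 values of Tinaja spanned those of all other morphs, while the Molino libraries all lay below the Pachón libraries. Its levels differed by 0.19, and its replicate SD was 0.19 as well, which was 2.02 times the SD from counting error alone. Leaving out Tinaja replicate 3, its highest library, made Tinaja in place of Molino the lowest morph, with a difference of 0.21 from surface fish. astmex-miR-134 had 21.0, 24.96, and 24.7 CPM in Molino, 19.2, 16.3, and 20.9 CPM in Pachón, 21.0, 21.2, and 25.5 CPM in Tinaja, and 19.6, 18.4, and 18.6 CPM in surface fish. Its Molino and Tinaja libraries all lay above its surface fish libraries, its levels differed by 0.32, and its replicate SD was 0.14.

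The other stable miRNAs with a mean count of at least 100 were astmex-miR-111, astmex-miR-107, and astmex-miR-117, which are named after their values were seen. astmex-miR-111, the most abundant of the 22 with a mean of 716 counts, had 73.3, 65.4, and 68.5 CPM in Molino, 72.4, 78.2, and 82.6 CPM in Pachón, 70.9, 58.2, and 73.5 CPM in Tinaja, and 73.9, 92.4, and 95.7 CPM in surface fish. Its first surface fish library lay among those of the other morphs, and its levels differed by 0.37. astmex-miR-107 had 55.7, 55.5, and 55.3 CPM in Molino, 59.3, 48.4, and 60.0 CPM in Pachón, 55.3, 52.0, and 40.8 CPM in Tinaja, and 61.3, 59.9, and 70.9 CPM in surface fish. The 3 Molino libraries were nearly identical, and the lowest value was that of Tinaja replicate 3. astmex-miR-117 had 32.8, 38.2, and 46.0 CPM in Molino, 46.6, 46.7, and 38.6 CPM in Pachón, 34.9, 31.7, and 30.1 CPM in Tinaja, and 37.2, 37.6, and 40.8 CPM in surface fish, and the Tinaja libraries lay below those of surface fish and Pachón but overlapped with those of Molino. Of the 22 stable miRNAs, 21 stayed among the chosen miRNAs with each of the 12 libraries left out in turn. The exception was astmex-miR-557, the miRNA with the lowest mean count, which is at the lower limit. Small differences between morphs leave little room for a gap at its limit, so nothing is read from this number. Staying among the chosen miRNAs does not mean staying stable.

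**Figure D2:**
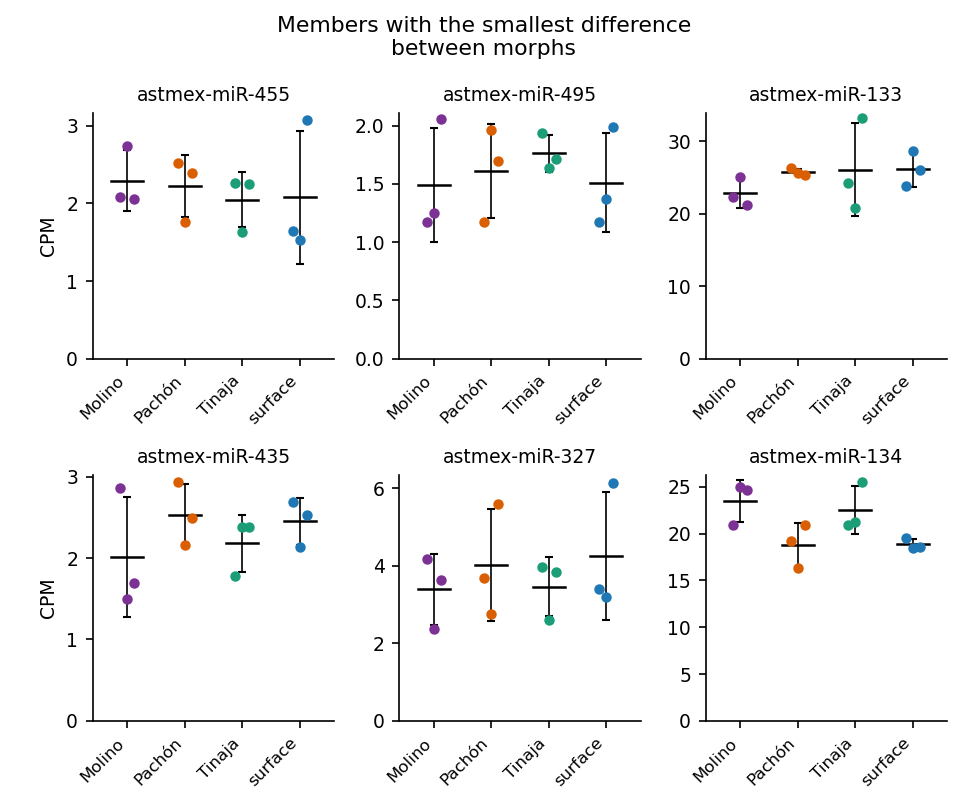
CPM of the 6 miRNAs with the smallest difference between morphs in each of the 12 libraries (points), with the mean (wide bar) and SD (error bar) of the 3 libraries of a morph. Each axis starts at 0, and most pairs of morphs overlap, with exceptions such as Molino and Pachón in astmex-miR-133 and Molino and surface fish in astmex-miR-134.

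The graded miRNAs differed by at least 2-fold between the highest and the lowest morph, with both other morphs on the way between them. Of the 36, 15 had their highest level in Molino, 8 in Pachón, and 6 in Tinaja, against 7 in surface fish. The lowest level was in Molino in 12, in Pachón in 6, and in Tinaja in 7, against 11 in surface fish. Over all 683, Molino was highest in 35.9%, Pachón in 23.0%, Tinaja in 22.4%, and surface fish in 18.7%. The lowest was Molino in 30.5%, Pachón in 21.4%, Tinaja in 25.2%, and surface fish in 23.0%. The pair of morphs at the ends was Molino and Tinaja in 10, Molino and surface fish in 9, Molino and Pachón in 8, Pachón and surface fish in 6, and Tinaja and surface fish in 3. In the same order, these pairs formed the ends in 28.1%, 17.3%, 20.9%, 14.2%, and 10.2% of all 683. No graded miRNA had Pachón and Tinaja at its ends, and this pair formed the ends in 9.22% of all 683. Surface fish lay between the cave morphs in 18 of the 36, beside 58.3% of all 683, and at an end of the gradient in the rest of the 36. These shares were not tested.

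The 36 graded miRNAs took 16 different orders of the 4 morphs. The most frequent were Molino, Pachón, Tinaja, surface fish (astmex-miR-230, astmex-miR-362, astmex-miR-403, and astmex-miR-254), Molino, surface fish, Tinaja, Pachón (astmex-miR-355, astmex-miR-479, astmex-miR-264, and astmex-miR-300), and surface fish, Tinaja, Pachón, Molino (astmex-miR-475, astmex-miR-146, astmex-miR-123, and astmex-miR-306), each from the highest to the lowest level and with 4 miRNAs each. The first and the last of these are the same order read in opposite directions. Among all 145, the most frequent order was Molino, Pachón, surface fish, Tinaja with 14 miRNAs.

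**Figure D3:**
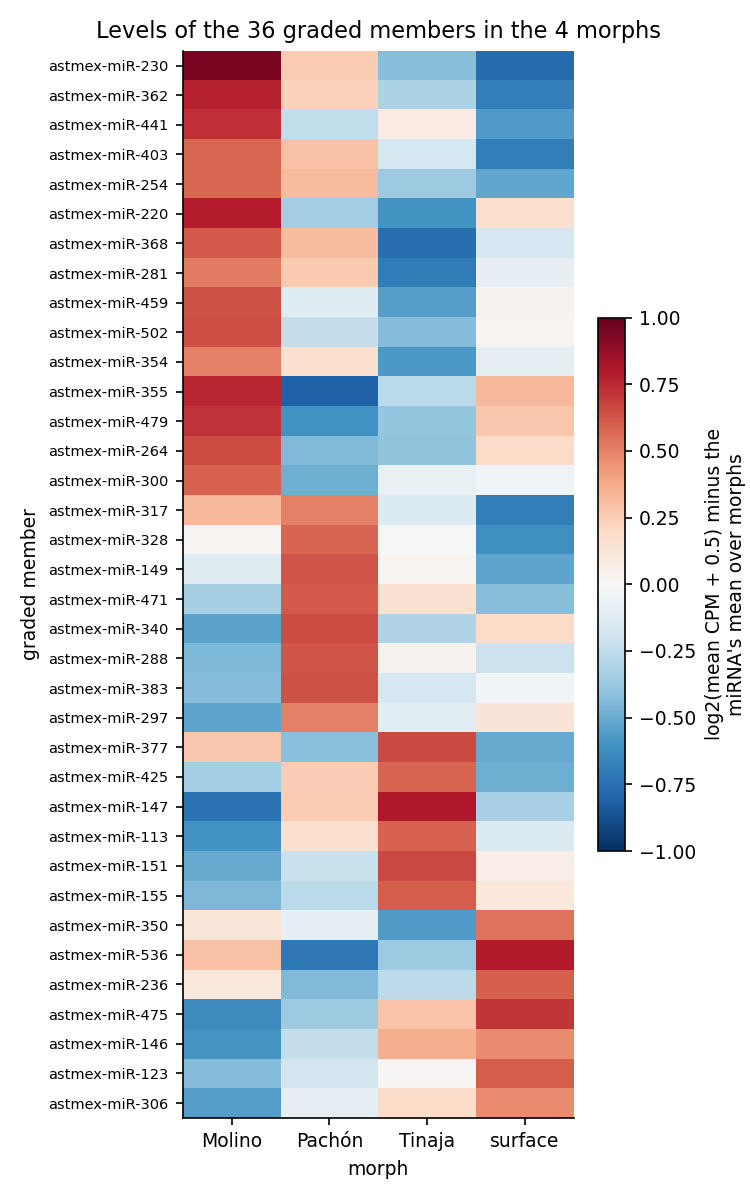
Level, log2(mean CPM + 0.5), of each of the 36 graded miRNAs in Molino, Pachón, Tinaja, and surface fish relative to the mean of its 4 morph levels, red above and blue below, grouped by the morph with the highest level. In 15 rows Molino is the reddest, in 8 Pachón, in 6 Tinaja, and in 7 surface fish. The columns have a fixed order, so adjacent cells can differ by more than 0.7, which limits only neighbouring levels put in order.

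The widest gradient from Molino to surface fish was that of astmex-miR-230, with a mean of 514 counts. It had 100.2, 94.1, and 87.5 CPM in Molino, 57.9, 54.3, and 62.0 CPM in Pachón, 33.1, 30.3, and 45.1 CPM in Tinaja, and 29.9, 28.05, and 27.1 CPM in surface fish. No library of a morph overlapped with a library of the next, and the levels differed by 1.71 (3.28-fold). Both upper steps were close to the limit on the gap, and leaving out Tinaja replicate 3 made the largest gap 0.86, in which case it was no longer among the chosen miRNAs. The direction from Molino down to surface fish held in this setting as well.

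astmex-miR-362 followed the same order at a lower level. It had 7.16, 6.49, and 5.32 CPM in Molino, 3.94, 3.21, and 5.38 CPM in Pachón, 2.67, 2.25, and 3.17 CPM in Tinaja, and 2.58, 1.22, and 2.17 CPM in surface fish. Its Molino and Pachón libraries overlapped, its Tinaja and surface fish libraries overlapped, and all of the first pair lay above all of the second. Its levels differed by 1.46 (2.74-fold) in some of the most even steps among the graded miRNAs. astmex-miR-403 and astmex-miR-254, named after their values were seen, shared this order. astmex-miR-403 had 3.88 ± 0.441 CPM in Molino, 3.10 ± 0.654 CPM in Pachón, 2.11 ± 0.310 CPM in Tinaja, and 1.32 ± 0.183 CPM in surface fish (SD, n = 3 each). astmex-miR-254 had 40.6 ± 5.56 CPM in Molino, 33.9 ± 3.47 CPM in Pachón, 21.0 ± 4.51 CPM in Tinaja, and 18.8 ± 1.41 CPM in surface fish (SD, n = 3 each), with its largest step between Pachón and Tinaja.

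astmex-miR-147 ran between Tinaja and Molino. It had 6.25, 3.87, and 5.56 CPM in Molino, 10.1, 10.6, and 12.0 CPM in Pachón, 17.0, 15.7, and 15.7 CPM in Tinaja, and 7.96, 7.47, and 5.96 CPM in surface fish. The Tinaja libraries were all above those of Pachón, which were all above those of the other morphs, while surface fish and Molino overlapped. The levels differed by 1.54 (2.91-fold), and the order from Tinaja over Pachón and surface fish to Molino was that of astmex-miR-113 as well.

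astmex-miR-113, with a mean of 422 counts, had 31.0, 24.0, and 23.1 CPM in Molino, 41.4, 48.1, and 44.3 CPM in Pachón, 55.2, 54.6, and 71.4 CPM in Tinaja, and 36.0, 37.3, and 34.8 CPM in surface fish. None of its 3 neighbouring pairs of morphs overlapped, and its steps were 0.43, 0.30, and 0.46. Without Tinaja replicate 3, its highest library, the difference between Tinaja and Molino was 1.06 in place of 1.2. Pachón and Tinaja were thus above surface fish and Molino was below.

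astmex-miR-220 ran the opposite way, with Molino highest and Tinaja lowest. It had 102, 106, and 92.9 CPM in Molino, 45.7, 45.9, and 45.3 CPM in Pachón, 37.9, 35.0, and 41.5 CPM in Tinaja, and 64.9, 65.2, and 65.0 CPM in surface fish. Its replicate SD of 0.08 was the smallest of the 145 miRNAs, its levels differed by 1.38 (2.61-fold), and no neighbouring morphs overlapped. The surface fish libraries lay below all Molino libraries and above all Pachón and Tinaja libraries. astmex-miR-281, named after its values were seen, also had its ends in Molino and Tinaja, with 14.3 ± 1.67 CPM in Molino, 11.9 ± 1.11 CPM in Pachón, 5.85 ± 1.04 CPM in Tinaja, and 9.28 ± 1.47 CPM in surface fish (SD, n = 3 each).

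Between Molino at the top and Pachón at the bottom were astmex-miR-355 and astmex-miR-479. astmex-miR-355 had 4.82, 4.24, and 5.56 CPM in Molino, 1.09, 0.851, and 1.99 CPM in Pachón, 2.27, 1.36, and 2.78 CPM in Tinaja, and 4.69, 2.13, and 3.61 CPM in surface fish. The surface fish libraries spread from 2.13 to 4.69 CPM and overlapped with Molino and Tinaja, while Molino and Pachón were well apart, and the levels differed by 1.57 (2.97-fold). astmex-miR-479 had 3.64, 4.37, and 2.30 CPM in Molino, 0.755, 1.05, and 1.40 CPM in Pachón, 1.05, 0.818, and 2.11 CPM in Tinaja, and 1.64, 2.44, and 3.07 CPM in surface fish. The Molino libraries all exceeded those of Pachón and Tinaja, the surface fish libraries overlapped with those of Molino and Tinaja, and the levels differed by 1.33. Without Tinaja replicate 3, the highest of its morph, Tinaja in place of Pachón was the lowest morph of astmex-miR-479, with a difference of 1.46 from Molino.

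astmex-miR-536, astmex-miR-475, and astmex-miR-441 had surface fish at 1 end and few counts. astmex-miR-536, with a mean of 10.8 counts, had 2.08, 1.62, and 0.967 CPM in Molino, 0.587, 0.589, and 0.399 CPM in Pachón, 0.890, 0.204, and 1.32 CPM in Tinaja, and 2.58, 1.22, and 3.43 CPM in surface fish. All Pachón libraries lay below all Molino and surface fish libraries, and Tinaja replicate 2 was at 3 counts, the level taken as the floor. astmex-miR-475 had 0.651, 0.624, and 1.57 CPM in Molino, 1.51, 0.851, and 1.40 CPM in Pachón, 2.51, 2.52, and 1.72 CPM in Tinaja, and 3.05, 2.74, and 3.79 CPM in surface fish. The 3 surface fish libraries lay above those of all cave morphs, the levels differed by 1.35, and leaving out Molino replicate 3, the highest of its morph, made the difference 1.70. astmex-miR-441 had 3.25, 2.37, and 4.47 CPM in Molino, 1.76, 0.916, and 1.69 CPM in Pachón, 2.27, 1.64, and 1.98 CPM in Tinaja, and 0.703, 1.07, and 1.44 CPM in surface fish, and its Molino libraries lay above those of the other morphs.

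astmex-miR-368 and astmex-miR-317 showed Molino and Pachón side by side above the other morphs. astmex-miR-368 had 2.73, 3.74, and 3.02 CPM in Molino, 2.10, 2.42, and 2.89 CPM in Pachón, 0.566, 0.613, and 1.59 CPM in Tinaja, and 0.937, 2.90, and 1.08 CPM in surface fish. A single surface fish library of 2.90 CPM reached the Molino and Pachón values, and Tinaja replicate 3 was the highest of its morph. astmex-miR-317, the widest gradient with Pachón at the top, had 8.46, 7.74, and 9.06 CPM in Molino, 11.4, 8.44, and 9.07 CPM in Pachón, 7.69, 6.41, and 3.83 CPM in Tinaja, and 4.10, 2.59, and 5.05 CPM in surface fish. Molino and Pachón overlapped, and the surface fish libraries lay below both. Of the 10 miRNAs with the largest difference, 6 (astmex-miR-230, astmex-miR-355, astmex-miR-536, astmex-miR-368, astmex-miR-475, and astmex-miR-479) had a gap of 0.78 to 0.97 without Tinaja replicate 3 and were then no longer among the chosen miRNAs.

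**Figure D4:**
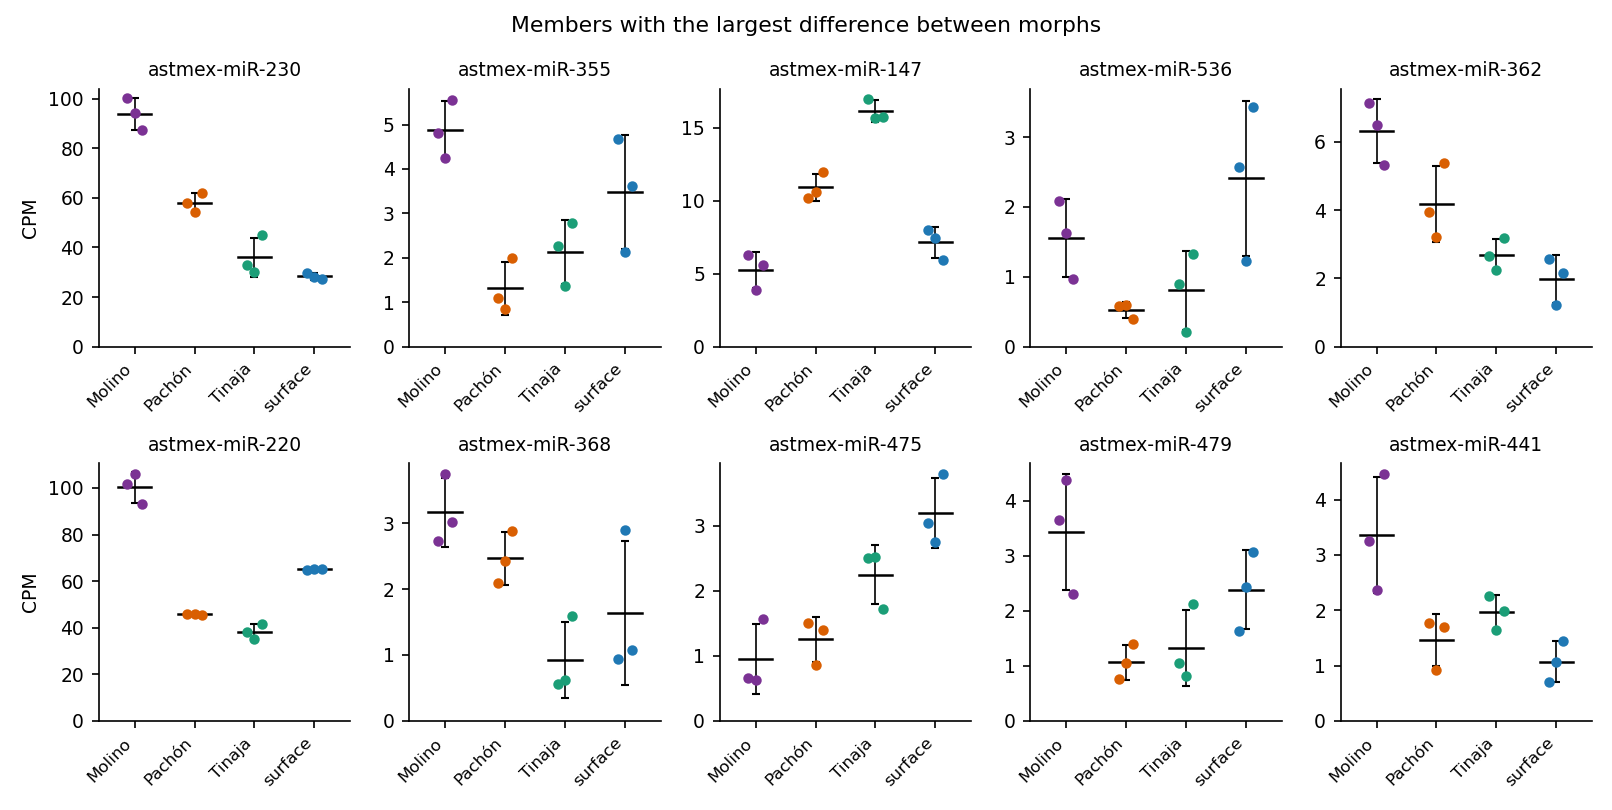
CPM of the 10 miRNAs with the largest difference between morphs in each of the 12 libraries (points), with the mean (wide bar) and SD (error bar) of the 3 libraries of a morph. Each axis starts at 0, and astmex-miR-230 and astmex-miR-220, with the highest CPM, show the least overlap between morphs.

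The libraries of the highest and the lowest morph did not overlap in 126 of the 145 miRNAs, whereas 90.0% of all 683 had this property. All 36 graded miRNAs were among the 126, as were 78 of the 87 between the limits. Neighbouring morphs were less often apart. No neighbouring pair was apart in 65 of the 145, 1 pair in 54, 2 pairs in 20, and all 3 pairs in 6 (24.3%, 42.0%, 25.6%, and 8.05% of all 683). The limit on the gap was set on these same values, so nothing is read from this contrast. In 10 of the 36 graded miRNAs (27.8%, beside 24.3% of all 683) no neighbouring pair was apart. In each of these 10, the order of neighbouring morphs lay within the spread of the libraries. Nothing about the graded miRNAs as a set is read from this share.

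In 6 miRNAs, with mean counts of 313 to 929.9, each morph was apart from the next. They were astmex-miR-230, astmex-miR-220, and astmex-miR-113, with the values already given, and astmex-miR-123, astmex-miR-216, and astmex-miR-234, named after their values were seen. astmex-miR-123 had 25.9, 25.1, and 20.4 CPM in Molino, 27.6, 27.4, and 30.6 CPM in Pachón, 33.2, 31.6, and 33.3 CPM in Tinaja, and 44.98, 45.9, and 57.6 CPM in surface fish, with surface fish at the top and Molino at the bottom and a difference of 1.04. astmex-miR-216 had 144, 129.6, and 128 CPM in Molino, 90.9, 90.7, and 92.7 CPM in Pachón, 57.0, 55.2, and 89.5 CPM in Tinaja, and 113, 120.0, and 111 CPM in surface fish. Here Tinaja replicate 3, at 89.5 CPM, was just below the Pachón libraries and far from the other Tinaja libraries. astmex-miR-234 had 69.6, 73.2, and 61.3 CPM in Molino, 44.0, 41.8, and 41.8 CPM in Pachón, 50.6, 48.6, and 48.9 CPM in Tinaja, and 31.5, 33.5, and 39.7 CPM in surface fish, and its steps from Molino over Tinaja and Pachón to surface fish were 0.46, 0.21, and 0.28. Each of the 6 had its own order of the morphs, except that astmex-miR-220 and astmex-miR-216 both went from Molino over surface fish and Pachón to Tinaja.

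On the scale of the levels, the 87 miRNAs between the limits differed by 1.42- to 1.99-fold, with a median of 1.74-fold. Ratios of plain CPM are larger, so these values do not mean that all 87 lay under 2-fold in plain CPM. For example, astmex-miR-440 had means of 2.42 CPM in surface fish and 1.02 CPM in Tinaja, and its ratio on the scale of the levels was 1.92. The highest level of the 87 was in Molino in 27, in Pachón in 17, and in Tinaja in 24, against 19 in surface fish. Several of these were not gradients but single morphs that differed from 3 closer ones by less than the limit. astmex-miR-118 had 45.9, 43.5, and 33.1 CPM in Molino, 67.6, 71.8, and 86.7 CPM in Pachón, 44.0, 47.2, and 47.8 CPM in Tinaja, and 36.4, 43.4, and 41.9 CPM in surface fish. Pachón was apart from the other 3 morphs, and the gap of 0.69 made up most of the difference of 0.88. Among these 3, Molino overlapped with Tinaja and with surface fish, while all Tinaja libraries lay above all surface fish libraries. Molino in place of surface fish was the lowest morph without Molino replicate 1, Molino replicate 2, or surface fish replicate 1. astmex-miR-102, named after its values were seen, had 98.5, 86.7, and 84.8 CPM in Molino, 84.3, 76.6, and 79.5 CPM in Pachón, 141, 127, and 166 CPM in Tinaja, and 88.1, 82.6, and 96.4 CPM in surface fish, with Tinaja apart. The other 3 morphs, in order of level, each overlapped with the next, while all Molino libraries lay above all Pachón libraries. The gap of astmex-miR-102 (0.68) was close to its limit, and its mean count was close to the upper limit on the count. It was the least often kept of the 145, as it stayed among them in 3 of the 12 settings with a library left out. In most of the other settings its mean count was past the upper limit.

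astmex-miR-131 had one of the smallest replicate SDs (0.11) and the same shape. It had 23.4, 19.8, and 21.1 CPM in Molino, 19.0, 19.9, and 24.0 CPM in Pachón, 29.4, 30.3, and 30.0 CPM in Tinaja, and 20.03, 19.2, and 20.8 CPM in surface fish. Tinaja was apart from the other morphs, which overlapped, and its levels differed by 0.57. Without Pachón replicate 3, the lowest morph was Pachón in place of surface fish. astmex-miR-94, the most abundant of the 145, had 83.3, 76.4, and 65.6 CPM in Molino, 75.5, 74.9, and 87.6 CPM in Pachón, 149, 146, and 129 CPM in Tinaja, and 99.2, 102, and 117 CPM in surface fish. The Tinaja libraries were all above, and the Molino and Pachón libraries all below, those of surface fish, with a difference of 0.91 between Tinaja and Molino. Without Molino replicate 3, the lowest morph was Pachón, and the mean count was past the upper limit.

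Over all 145 miRNAs, the highest level was in Molino in 50, in Pachón in 29, and in Tinaja in 31, against 35 in surface fish. The lowest level was in Molino in 42, in Pachón in 28, and in Tinaja in 41, against 34 in surface fish. With TMM-adjusted library totals, Molino was highest in 56 and lowest in 36, and with RLE-adjusted totals it was highest in 47 and lowest in 46. Under these scalings, the median shift of the levels in a morph, taken over all 683 miRNAs, was at most 0.03 on the log2 scale. Molino and Tinaja were the ends in 44 of the 145 miRNAs (30.3%), with Molino above in 26 and Tinaja above in 18. The same pair formed the ends in 28.1% of all 683. Surface fish lay between cave morphs in 76 of the 145 (52.4%), in 64.6% of the other 226 miRNAs of the count range, and in 58.3% of all 683. Surface fish held the highest level in 24.1% of the 145, in 10.2% of the other 226, and in 18.7% of all 683. These shares describe miRNAs that were chosen on the same values and were not tested.

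The calls of differential expression from edgeR's quasi-likelihood test over all 683 miRNAs (an adjusted p under 0.05 with a 2-fold or larger change) are given for the 145 beside the share called among all. Since the limit on the gap used these same contrasts, nothing is read from the lower shares. In Molino compared with surface fish, 16 of the 145 were called, 12 higher and 4 lower, whereas 34.8% of all miRNAs were called. With library totals alone, 13 were called, 8 higher and 5 lower, beside 233 of all 683. In Pachón compared with surface fish, 15 were called (8 higher and 7 lower), beside 29.7% of all. In Tinaja compared with surface fish, 7 were called (3 higher and 4 lower), beside 28.7% of all. Without Tinaja replicate 3 the number was 11, beside 27.7% of all.

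Between cave morphs, 19 of the 145 were called in Molino compared with Pachón (10 higher and 9 lower), beside 39.5% of all 683. In Molino compared with Tinaja, 33 were called (25 higher and 8 lower), beside 42.8% of all, and in Pachón compared with Tinaja 10 were called (7 higher and 3 lower), beside 24.9% of all. These comparisons share libraries with each other. By the adjusted p alone, without a limit on the fold change, the number of the 145 called was 60 in Molino, 63 in Pachón, and 45 in Tinaja, each compared with surface fish, beside 55.3%, 49.8%, and 48.5% of all 683. It was 52 in Molino compared with Pachón, 77 in Molino compared with Tinaja, and 65 in Pachón compared with Tinaja, beside 57.8%, 63.5%, and 45.8%. In all, 62 of the 145 were called in at least 1 of the 6 comparisons, beside 64.7% of all 683. These were 35 of the 36 graded miRNAs and 27 of the 87 between the limits. The 87 were set apart by their levels, whereas the 2-fold limit of a call was applied to edgeR's own estimate of the change. The graded miRNA that was not called was astmex-miR-123. The 8 called in 3 comparisons were astmex-miR-147, astmex-miR-230, astmex-miR-355, astmex-miR-362, astmex-miR-368, astmex-miR-475, astmex-miR-479, and astmex-miR-536, beside 23.3% of all 683. No miRNA of the 145 was called in 4 or more, beside 22.5% of all. The choice of the 145 used the same contrasts, so nothing is read from these counts.

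The spread between replicate libraries was not used to choose the miRNAs. The replicate SD on the log2 scale was 0.08 to 0.68 with a median of 0.26, and it was 0.26 as well in the other 226 miRNAs of the count range and in all 683. The 93 miRNAs with a mean count under 100 had a median SD of 0.31, and the median ratio of the SD to the SD that counting error alone gives on the same log2(CPM + 0.5) scale was 1.23. In the 52 with a mean count of at least 100, the median SD was 0.16 and the median ratio was 1.96. The replicate spread thus lay nearer to counting error in the lower count range. Of the 22 stable miRNAs, 17 were in the lower count range, as were 28 of the 36 graded ones.

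**Figure D5:**
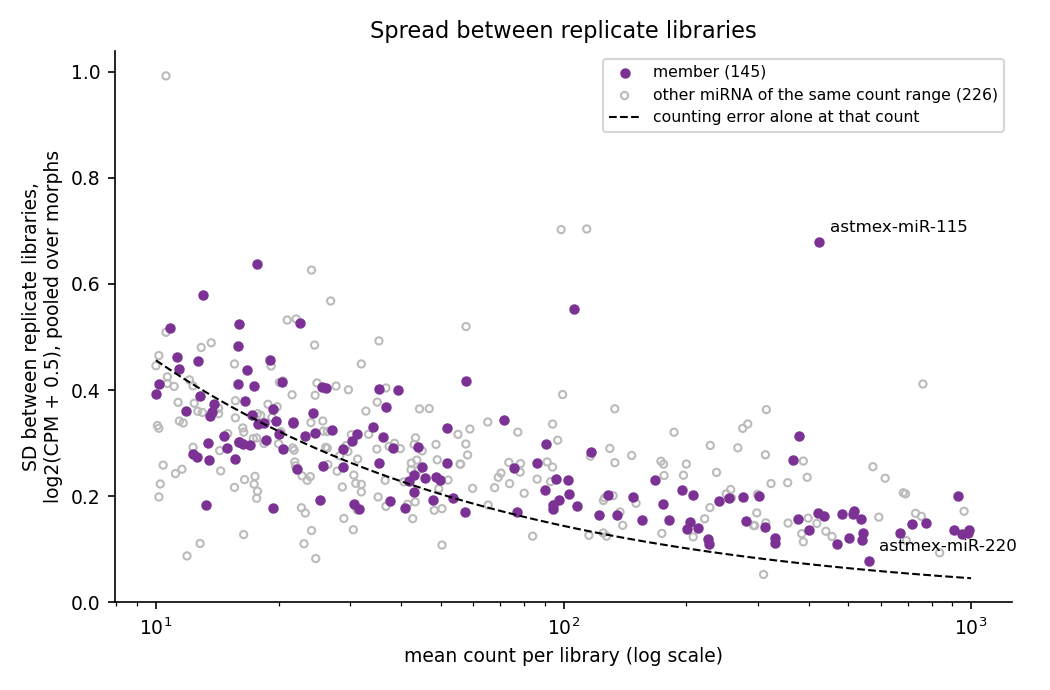
SD of log2(CPM + 0.5) between replicate libraries, pooled over the 4 morphs, against the mean count per library on a log scale, for the 145 miRNAs (purple) and the other 226 of the count range (open circles), with the SD from counting error alone as a dashed line (computed without the added 0.5). Most points approach the line at low counts and lie above it at high counts, and astmex-miR-115 stands out at 0.68.

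astmex-miR-115 had the largest replicate SD (0.68), 8.61 times its counting SD. It had 17.7, 21.7, and 92.7 CPM in Molino, 29.4, 37.8, and 41.9 CPM in Pachón, 53.2, 41.6, and 67.9 CPM in Tinaja, and 43.2, 41.9, and 43.1 CPM in surface fish. Molino replicate 3, at 92.7 CPM, was the highest of all libraries, and the other Molino libraries were the lowest. With this library left out, the largest gap was 0.87 and Molino was the lowest morph, in which case astmex-miR-115 was no longer among the chosen miRNAs. astmex-miR-440 had the second largest replicate SD (0.64), with 1.56, 2.62, and 3.02 CPM in Molino, 1.68, 0.982, and 3.19 CPM in Pachón, 1.70, 1.23, and 0.132 CPM in Tinaja, and 1.87, 2.13, and 3.25 CPM in surface fish, and its lowest value, in Tinaja replicate 3, rested on 1 count. Without Molino replicate 1 or surface fish replicate 3 the highest morph of astmex-miR-440 was Molino, and without Pachón replicate 2 it was Pachón, in place of surface fish.

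With each of the 12 libraries left out in turn, between 136 and 146 miRNAs met the limits. Of the 145, 99 stayed in all 12 settings. These were 21 of the 22 stable miRNAs, 66 of the 87 between the limits, and 12 of the 36 graded ones. The classes were cut on the same levels as the limit on the gap. A small difference between morphs leaves little room for a gap at that limit, so nothing is read from this contrast. Staying means that the limits were met again, not that the class was kept. The graded miRNAs that stayed in all 12 included astmex-miR-220, astmex-miR-147, and astmex-miR-113, and those that did not included astmex-miR-230 and astmex-miR-536, which stayed in 8 and 7 settings.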

How the data were processed

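Small RNA was sequenced from whole embryos of 4 morphs at 24 hpf. The authors trimmed the reads, dropped short ones and those from tRNAs, rRNAs, and small nuclear, nucleolar, and Cajal body RNAs, merged all libraries for miRNA calling by miRDeep2 (genome *A. mexicanus* 2.0), merged identical miRNAs by CD-HIT, and quantified each library with miRDeep2. The submitters' processing notes list bcl2fastq 2.20 and cutadapt 2.5. The deposited values are raw whole-number counts per mature miRNA and library, not normalized and with replicates not pooled, and 0 columns were left unused. How reads that match several similar miRNAs were shared out was not examined here.

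Morphs and replicate numbers came from the sample labels. CPM was computed on column totals, and levels are log2(mean CPM + 0.5). The miRNAs and the lists were chosen with earlier results of these data known. The miRNAs named are the 6 with the smallest and the 10 with the largest difference between morphs, those with the largest difference for each highest and lowest morph, the 4 with the most even steps, those at each limit of the choice, and the 2 with the largest and the 2 with the smallest replicate SD. Others are marked as named after their values were seen.

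Counts were fitted with edgeR 4.0.16 in R 4.3.3 (TMM factors, glmQLFit, glmQLFTest), with 1 fit of all 12 libraries, a mean for each morph, no low-count filter, and Benjamini−Hochberg adjustment over all 683 miRNAs for each comparison. Python 3.11.15 was used for the rest. The code was tested on simulated data. Alternatives were other scalings, pseudocounts, limits, filters, and tests, among them DESeq2 1.42.0, the replicate number as a block, and each library left out in turn. Counts without molecular identifiers are not independent molecules, so limits from counts cover counting error only. The smallest two-sided p of an exact permutation test of 3 libraries against 3 is 0.1, and no such test was made.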

Additional observations from a re-analysis of the deposited data

Results flagged for a closer look

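In 15 of the 145 miRNAs, beside 19.9% of all 683, all libraries of at least 1 cave morph lay above, and all libraries of at least 1 other cave morph lay below, the 3 surface fish libraries. The miRNAs were chosen on these same values, and the difference between the cave morphs was not tested. Each difference is on the log2 scale, between the outermost of these cave morphs.

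Molino was above surface fish, and Pachón and Tinaja were below, in astmex-miR-220 (a difference of 1.38), astmex-miR-264 (1.10), and astmex-miR-216 (0.99). Molino was above and Tinaja alone was below in astmex-miR-459 (1.18) and astmex-miR-143 (0.95), and Molino was above and Pachón alone was below in astmex-miR-116 (0.65). Molino and Pachón were above and Tinaja was below in astmex-miR-281 (1.22) and astmex-miR-296 (0.87). Molino and Tinaja were above and Pachón was below in astmex-miR-302 (0.88) and astmex-miR-249 (0.80).

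Molino was below surface fish in the other 5. Pachón and Tinaja were above in astmex-miR-113 (1.2), and Pachón alone was above in astmex-miR-383 (1.07) and astmex-miR-271 (0.99). Tinaja was above, with Pachón below as well, in astmex-miR-94 (0.91) and astmex-miR-100 (0.71). Those not in the report were named after their values were seen. With 3 libraries per morph, outlying libraries were not tested for.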

How the results depend on the processing

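The number of miRNAs chosen depended most on the pseudocount and on the limit on the gap. With a pseudocount of 5 it was 256. Of the 145, 88 were then stable and 4 graded, and their median replicate SD was 0.127. With a pseudocount of 1, 23 of the 145 were graded. With a limit of 0.5 on the gap, 88 were chosen. With TMM-adjusted totals 139 were chosen and with RLE-adjusted totals 146, and the summed level in Molino was 2504 CPM with TMM. A minimum of 10 counts in every library left 98 of the 145 to test, of which 7 were called in Molino, 5 in Pachón, and 1 in Tinaja compared with surface fish, 9 in Molino compared with Pachón, 18 in Molino compared with Tinaja, and 2 in Pachón compared with Tinaja, beside 21.2%, 16.4%, 14.5%, 21.9%, 27.7%, and 13.8% of the 311 miRNAs tested. With edgeR's glmTreat, which tests for a change beyond 2-fold, 4, 1, 0, 3, 6, and 0 were called in the same order, beside 22.8%, 18.7%, 18.7%, 29.3%, 30.9%, and 16.3% of all 683. In this test 6, 3, 2, 6, 13, and 1 of the 145 had an unadjusted p under 0.05. The unadjusted p was not counted over all 683, so nothing is read from these numbers. Leaving out single libraries gave 4 to 11 calls in Tinaja compared with surface fish, with 4 without Tinaja replicate 2 (beside 26.9% of all) and 11 without Tinaja replicate 3 (beside 27.7%). DESeq2 called 11, 15, 7, 18, 27, and 9 in the same order, beside 32.1%, 28.6%, 26.6%, 38.1%, 40.1%, and 22.8% of all. Leaving out 1 library changed the morph with the highest or the lowest level in 14 of the 25 miRNAs named by rule, among them all 7 stable ones, all 5 between the limits, and 2 of the 13 graded ones (astmex-miR-479 and astmex-miR-377). The counting SD was first computed without the added 0.5, which gave a median ratio of 0.98 in place of 1.23 under 100 counts, and the matched scale was chosen after seeing the data.

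Over all miRNAs with a mean count of at least 10, libraries with the same replicate number showed little shared deviation. Their correlations were −0.18 to 0.15, and 3 of 18 were over 0.1. Counting error also lowers such correlations, so they do not settle whether the numbers pair the libraries. With the replicate number as a block, 15, 15, 6, 19, 33, and 10 of the 145 were called in the same order, beside 34.0%, 29.7%, 28.1%, 38.5%, 42.0%, and 24.5% of all. Among the libraries of the other morphs, 3 of the 12 libraries correlated best with one of their own number. Each other morph has such a library among its 3, so matches like these arise without pairing as well.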
